A study of Sus scrofa with 16 samples.

Results

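Cytosolic ribosomal protein genes, which encode the protein part of the ribosomes that work in the cytoplasm, were read on 16 arrays of pig colon and liver. The members are the genes whose name in the scanner files starts with RPL or RPS and a digit, or is RPLP0, RPLP1, RPLP2 or RPSA, without the RPS6K kinases and without names that end in L after a number. This rule found 40 genes, measured by 202 of the 43603 probes of the array, which carry 35458 distinct gene name entries. Each gene was read at 1 probe, the one with the highest mean over the 16 arrays. The members comprise 21 genes of the large subunit, 17 of the small subunit and 2 of the P-stalk, RPLP1 and RPLP2. Of the 40 names, 39 match a pig symbol in RefSeq and RPS4 is an older name of RPS4X. RPL26L1, RPL36AL and RPL7L1 are names of relatives of ribosomal protein genes, and 37 members remain without them. RPLP0, RPS6, RPS14, RPS19 and RPS27A have no probe under these names. "RPS" stands for raw potato starch when it names a diet, and for a protein of the small subunit when a gene symbol begins with it.

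The arrays come from a study of long-term feeding of resistant starch to pigs, whose paper states its aim for the colon. Barrows (castrated males) of the cross Duroc × Landrace × Large White ate a corn and soybean diet with purified corn starch (CS), or the same diet with raw potato starch (RPS) in place of that starch. Liver and colonic mucosa were taken at an age of 170 days. The 4 groups are liver CS, liver RPS, colon CS and colon RPS, with 4 arrays each and no pooling stated. Both tissues are mixtures of cell types, and no group carries a genetic change.

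A ribosome joins a small subunit, which reads the messenger RNA, to a large subunit, which links amino acids and carries a flexible stalk of P proteins that recruits elongation factors. Nearly every subunit protein is present in a single copy per ribosome, and the messenger RNAs of these proteins begin with a tract of pyrimidines that lets the kinase mTOR raise or lower their translation together. Ribosome production is high in dividing cells, such as those of the colonic crypts and of lymphoid follicles, and in liver cells that secrete plasma proteins.

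The scanner read 45220 spots per array, and 43803 remained without the controls. Median signals per array were 56.3 to 70.8 in colon CS, 34.2 to 42.5 in colon RPS, 30.6 to 37.9 in liver CS and 31.1 to 37.9 in liver RPS. On colon CS arrays 68.8% to 72.2% of probes passed the scanner's test of signal well above background, and on colon RPS arrays 64.9% to 68.1% did. The share was 61.1% to 65.9% in liver CS and 62.6% to 64.0% in liver RPS. All 40 member probes passed it on each of the 16 arrays, none of their spots was saturated, and 39 of them were among the brightest 5% of the array. Their mean log2 signal ran from 12.26 to 18.13, so no member was lost to a filter on low signal. Every group lay on a slide and a scan of its own, so that diet and slide cannot be told apart, and the number of arrays limits the precision.

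In the colon, CS replicate 3 and RPS replicate 2 stood apart from the others of their groups. On both arrays all 40 members were above their group mean. The median deviation of the 40 genes from the group mean was 0.33 on CS replicate 3, against -0.19, -0.08 and -0.01 on CS replicates 1, 2 and 4. In the RPS group it was 0.37 on replicate 2, against -0.13, -0.31 and 0.08 on replicates 1, 3 and 4. No member was above its group mean on CS replicate 1 or RPS replicate 3. When arrays were scaled to their 75th percentile and not quantile normalized, the deviations of the same arrays were 0.21 and 0.29, again the highest of their groups. On that scaling RPS replicates 1, 3 and 4 were at -0.11, -0.36 and 0.19, so that replicate 3 lay farther from the group mean than replicate 2.

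Markers of some cell types moved on the same arrays. The median of 18 genes of the colonic epithelium, such as the lectin LGALS4, was 1.37 log2 units under the group mean on CS replicate 3 (deviation -1.37) and the deviation was -0.98 on RPS replicate 2, while the other 6 colonic arrays lay between 0.12 and 0.75. The mean level of this list was 14.51, 14.31, 12.26 and 14.05 on CS replicates 1 to 4 and 14.61, 12.96, 14.36 and 13.97 on RPS replicates 1 to 4. Its most abundant gene was FABP1, a fatty acid carrier that liver cells also make. The 17 lymphocyte genes deviated by 0.85 on CS replicate 3 and by 0.88 on RPS replicate 2, and the 11 genes of cell division by 0.92 and 0.86. Lymphocyte genes lay farthest from the group mean on RPS replicate 4 (-0.98), where the members were at 0.08 and the division genes at 0.38. Myeloid genes deviated by 0.004 on CS replicate 3 and 0.24 on RPS replicate 2, and stromal genes by -0.37 and 0.04. Lymphocyte genes had mean levels of 8.82, 9.58, 10.88 and 9.33 in colon CS and of 8.77, 10.44, 8.70 and 8.11 in colon RPS. Their most abundant gene was XBP1, a regulator of secretory cells that the liver also makes. Division genes, with MKI67 the most abundant, had mean levels of 9.26, 9.79, 10.95 and 9.81 in colon CS and of 9.51, 10.68, 8.89 and 10.26 in colon RPS. The 18 genes of ribosome biogenesis, most abundant NOP58, deviated by 0.57 and 0.30 on the same arrays. The part of cell composition in the level of the members was not tested, and in bulk samples fewer cells of a type and less RNA per cell cannot be told apart.

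**Figure D1:**
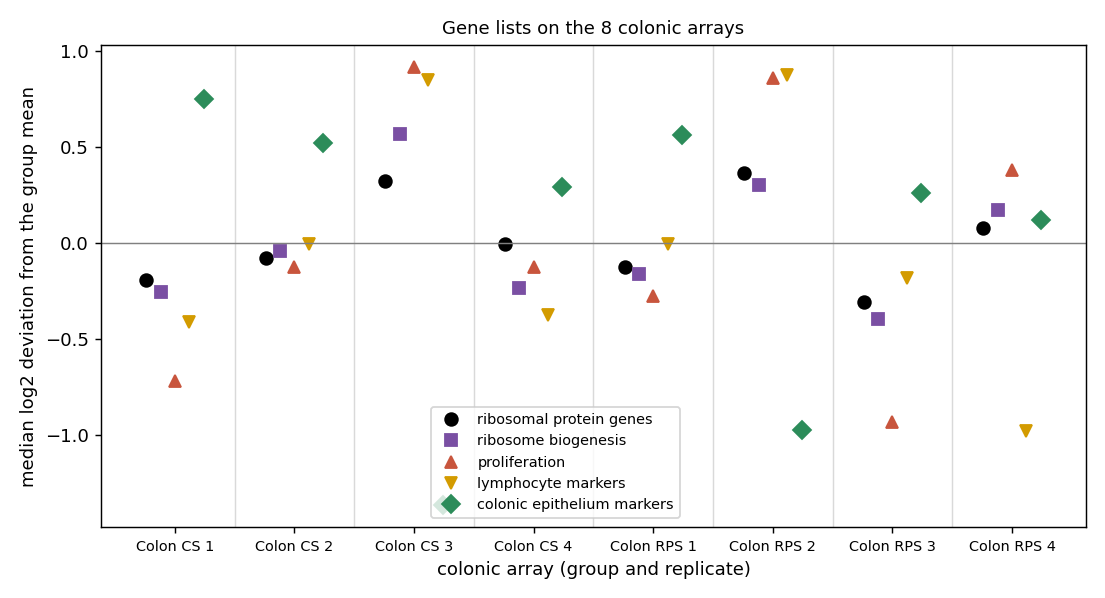
Median log2 deviation from the mean of the same diet group, on each of the 8 colonic arrays, for the 40 ribosomal protein genes and for lists of ribosome biogenesis, cell division, lymphocyte and colonic epithelium genes. On CS replicate 3 and RPS replicate 2 the ribosomal protein genes (0.33 and 0.37) and lymphocyte genes (0.85 and 0.88) are high, and the epithelium genes (-1.37 and -0.98) are low. On RPS replicate 4 the lymphocyte genes are at -0.98 and the ribosomal protein genes at 0.08.

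The correlations among members across arrays had a higher median in the colon than in the liver, a difference that was not tested. After subtraction of group means, the correlation of 2 members over the 8 colonic arrays had a median of 0.91 (range 0.52 to 1.00), and all 780 pairs were above 0. Over the 8 liver arrays the median was 0.46, and 632 of the 780 pairs were above 0. Without CS replicate 3 and RPS replicate 2, the colonic median over 6 arrays was 0.80, and 744 pairs were above 0. Over all probes well above background the mean correlation was 0.003 in the colon (26495 probes), where the mean of the members was 0.89, and 0.001 in the liver (24959 probes), where it was 0.38. These genes share arrays, tissue and normalization, and the correlations are given as a description. RPL23, a large subunit protein, had the highest mean correlation with the other members in the colon (0.94), and RPLP1 the lowest (0.76). In the liver, the mean correlation with the other members was -0.45 for RPL13A and -0.13 for RPSA, the small subunit protein that also occurs as a laminin receptor.

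Correlations within other lists were described in the same way. Among 9 genes of elongation and of other messenger RNAs with a pyrimidine tract the median correlation of a pair was 0.86 in the colon and -0.06 in the liver. The 18 biogenesis genes gave 0.82 and 0.34, and the 10 initiation factors 0.52 and 0.25. The 10 genes of the mitochondrial ribosome, a separate particle, gave 0.36 in the colon and 0.41 in the liver. High colonic correlations were not limited to translation genes. The median was 0.96 for the 11 division genes, 0.86 for the 18 epithelium genes and 0.74 for the 17 lymphocyte genes in the colon, and 0.67, 0.06 and 0.19 in the liver.

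Colon and liver were compared to see how the messenger RNAs of ribosomal proteins differ between the tissues, whichever the diet. The arrays measure messenger RNA, and the amount of protein or of ribosomes was not measured. With quantile normalization, 33 of the 40 members were higher in the colon at an adjusted p under 0.05 and 0 were lower, whereas of all probes 28.9% were higher and 24% were lower. With a fold above 1.5 as well, 20 members were higher, beside 23.4% of all probes higher and 18.7% lower. The median difference of the members was 0.58, against 0.01 over all 43603 probes and 0.42 over the 2181 brightest. The median of the family stayed above 0 with both scalings, but its size and the calls depend on the scaling. With the 75th percentile, 13 members were higher and 4 were lower, among 28.7% higher and 32.1% lower of all probes, and the median was 0.15 for the members, -0.06 for all probes and -0.004 for the brightest. The normexp background correction and the authors' own values each gave 33 members higher and 0 lower. Of all 43603 probes, 11968 were higher and 9371 lower with normexp, and 12610 and 10443 with the authors' values.

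Each array's members lay as follows. As medians of the distance from each gene's mean over the 16 arrays, liver CS had -0.23, -0.17, -0.13 and -0.37, liver RPS -0.31, -0.25, -0.51 and -0.29, colon CS 0.09, 0.19, 0.63 and 0.29, and colon RPS 0.09, 0.65, -0.05 and 0.37. Thus every colonic array was above every liver array with this normalization. With the 75th percentile the liver arrays ran from -0.29 to 0.07 and the colonic arrays from -0.22 to 0.49, and the tissues overlapped.

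**Figure D2:**
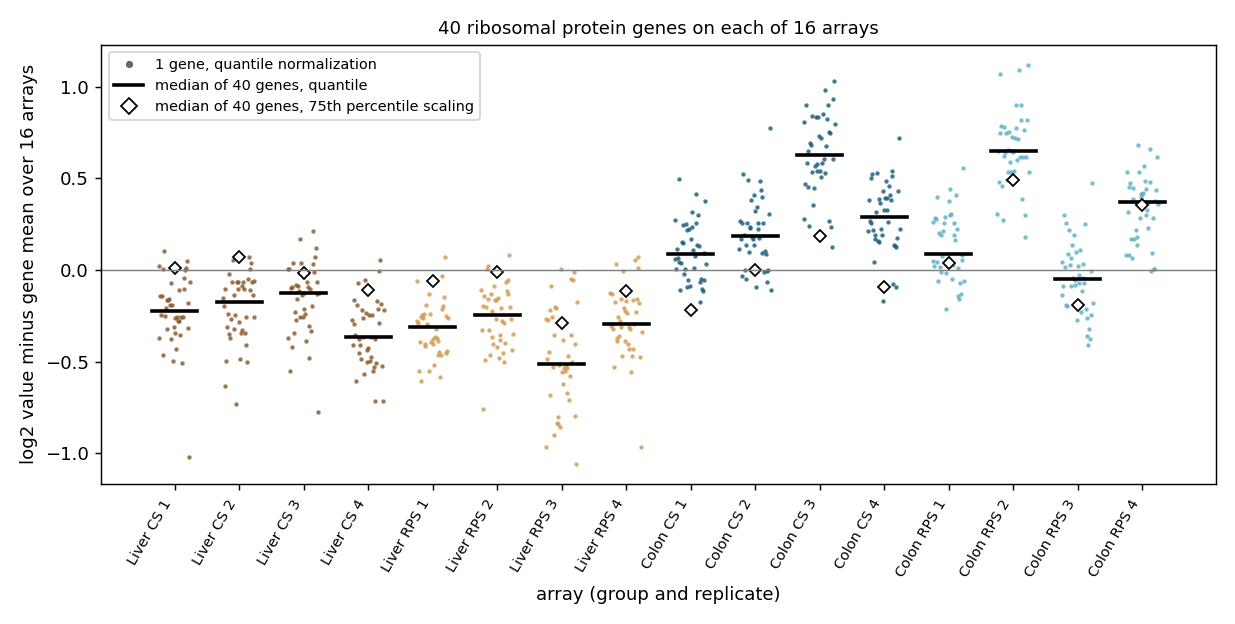
Each point is 1 of the 40 ribosomal protein genes on 1 of 16 arrays, as its log2 value minus the mean of that gene over all arrays, bars are medians over the 40 genes with quantile normalization, and diamonds are medians with scaling to the 75th percentile. With quantile normalization colonic medians (-0.05 to 0.65) lie above liver medians (-0.51 to -0.13), whereas with the 75th percentile they overlap.

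Within the large subunit, 19 of 21 genes were higher in the colon and 0 were lower (median 0.57), or 7 higher and 1 lower with the 75th percentile (median 0.14). RPL18 had log2 values of 15.49, 15.64, 15.53 and 15.34 in liver CS, 15.34, 15.45, 15.27 and 15.42 in liver RPS, 16.45, 16.48, 16.60 and 16.47 in colon CS, and 16.35, 16.73, 16.21 and 16.43 in colon RPS. All 8 colonic arrays were above all 8 liver arrays. Its mean was 16.46 ± 0.16 in the colon and 15.43 ± 0.12 in the liver (SD, n = 8 each), a 2.04-fold difference (1.03 on the log2 scale, SE 0.08, adjusted p = 8.62e-08). It was also called with the 75th percentile, at 0.56. RPL36AL, a close copy of RPL36A, was 15.79 ± 0.25 in the colon and 14.86 ± 0.19 in the liver (SD, n = 8), a difference of 0.93 (SE 0.12, adjusted p = 1.13e-05), and likewise 0.42 and called with the 75th percentile at this probe. On that scaling RPL36AL lost the call within CS (0.26) or RPS pigs alone (0.57), and without both colonic arrays that stand apart (0.32). RPL3, which shapes the center where peptide bonds form, was 0.82 higher (SE 0.13) and 0.48 with the 75th percentile, both called. With that scaling it was not called within CS (0.44) or RPS pigs alone (0.53).

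At the other end were large subunit genes with small differences. RPL10, which joins the subunit late in its maturation, had 17.00, 16.82, 16.98 and 16.70 in liver CS, 16.91, 16.87, 16.71 and 16.85 in liver RPS, 17.03, 17.09, 17.25 and 17.19 in colon CS, and 17.02, 17.28, 16.84 and 17.06 in colon RPS. The tissues overlapped only through colon RPS replicate 3, the other 7 colonic arrays being above all liver arrays. The difference was 0.24 (SE 0.08, adjusted p = 0.0197) and turned to -0.15, not called, with the 75th percentile. RPL30, RPL19 and RPL7L1 were higher by 0.32 (SE 0.09), 0.34 (SE 0.09) and 0.37 (SE 0.15), and with the 75th percentile they gave -0.19, -0.05 and -0.07, none of them called. RPL7L1, whose product acts in ribosome assembly and whose other 2 probes were not called, was at the edge of the threshold (adjusted p = 0.0491) and lost the call in 12 of 16 fits with 1 array left out (adjusted p 0.0546 to 0.0974), keeping it without liver CS replicate 2, colon CS replicate 1 or 4, or colon RPS replicate 3.

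RPL5, RPL11 and RPL23 can bind MDM2, the regulator of p53, when ribosome assembly is disturbed. RPL11 was 17.69 ± 0.21 in the colon and 17.28 ± 0.15 in the liver (SD, n = 8), and the difference of 0.41 (SE 0.10, adjusted p = 0.00351) was 0.01 with the 75th percentile, where 1 of its other 3 probes was called (0.92). RPL5 differed by 0.43 at the chosen probe (SE 0.18, adjusted p = 0.057), with the tissues overlapping. It was called with the mean of all its probes (0.71), with a filter on signal, with either block and in 4 fits with 1 array left out (0.47 to 0.50), and 14 of its 18 probes were called higher. That mean includes A_72_P735163 (2.31) and A_72_P732813 (2.77), while the other RPL5 probes gave 0.24 to 0.85. The estimated correlation of the slide block was negative (-0.0462), which narrows the errors. With the 75th percentile the chosen probe gave 0.05 (adjusted p = 0.831), and only the RPL5 probes A_72_P735163 and A_72_P732813 were called. RPL23 differed by 0.06 (SE 0.08, adjusted p = 0.561), and by -0.32 with the 75th percentile, where it was called lower (adjusted p = 0.0106). That call rests on the chosen probe, since the other 3 RPL23 probes gave 0.22 to 0.38 and, with the 75th percentile, -0.28 to -0.10, with 0 called either way. MDM2 itself, chosen after its values were seen, was 0.72 higher in the colon (SE 0.12), and 0.76 with the 75th percentile.

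**Figure D3:**
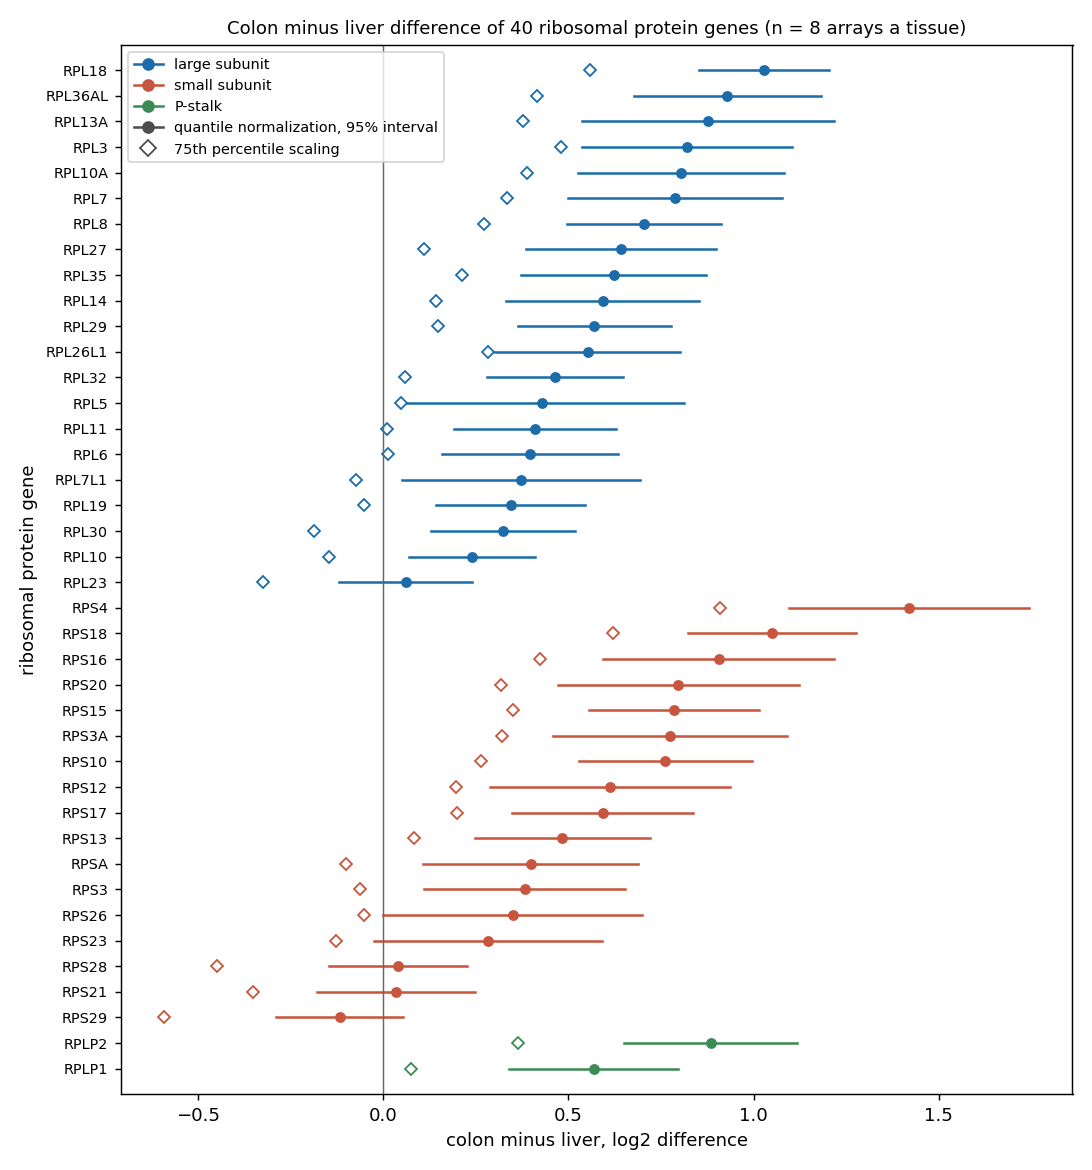
Colon minus liver difference (log2, 8 arrays a tissue) of the 40 ribosomal protein genes by subunit, with filled circles and bars for the value and its 95% interval after quantile normalization and open diamonds for the value after scaling to the 75th percentile. RPS4 is highest with both (1.42 and 0.91), while all diamonds lie to the left of their circles and RPS29, RPS28, RPS21 and RPL23 fall to -0.59, -0.45, -0.35 and -0.32.

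Of the 17 small subunit genes, 12 were higher in the colon and 0 were lower (median 0.59), or 5 higher and 3 lower with the 75th percentile (median 0.20). RPS4 had values of 14.26, 15.02, 14.50 and 14.57 in liver CS, 14.84, 14.85, 14.22 and 14.31 in liver RPS, 15.66 to 16.31 in colon CS, and 15.84, 16.40, 15.76 and 15.90 in colon RPS. The lowest colonic array was above the highest liver array. RPS4, whose gene lies on the X chromosome in pigs, had the widest difference of the 40 members, 2.68-fold (1.42, SE 0.15, adjusted p = 1.89e-06, and 0.91 with the 75th percentile, at the chosen probe). RPS18, at the head of the subunit, was 17.06 ± 0.22 in the colon and 16.01 ± 0.14 in the liver (SD, n = 8), a 2.07-fold difference (1.05, SE 0.11, adjusted p = 1.07e-06, and 0.62 with the 75th percentile). RPS16 was 0.91 higher (SE 0.14) and 0.42 with the 75th percentile. All 3 were called under both scalings, and none of them overlapped between the tissues, though other probes of RPS4 lost the call with the 75th percentile. RPS16 lost it on that scaling within CS (0.41) or RPS pigs alone (0.44).

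RPS29 had 17.98, 17.97, 18.05 and 17.98 in liver CS, 18.00, 18.01, 17.92 and 18.00 in liver RPS, 17.81, 17.86, 18.05 and 17.84 in colon CS, and 17.80, 18.11, 17.55 and 17.93 in colon RPS. Colon RPS replicate 2 was the highest of all arrays, colon CS replicate 3 and colon RPS replicate 4 lay within the liver range, and the other colonic arrays were below it. Its difference was -0.12 (SE 0.08, adjusted p = 0.241), and -0.59 with the 75th percentile (adjusted p = 3.64e-05). Of its other 3 probes, 2 were called lower with quantile normalization, at -0.21 and -0.26, and the latter had a signal well above background on 0 arrays. RPS28 and RPS21 differed by 0.04 (SE 0.09) and 0.03 (SE 0.10), neither called, and were called lower with the 75th percentile, at -0.45 and -0.35. RPS29, RPS28 and RPS21 were chosen after their values were seen. RPS3, which lies at the entry of the messenger RNA and also takes part in DNA repair, was higher by 0.38 (SE 0.13, adjusted p = 0.0196), and RPSA by 0.40 (SE 0.13, adjusted p = 0.0223). Both turned with the 75th percentile, to -0.06 and -0.10, and neither was called.

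Both P-stalk genes were higher in the colon with quantile normalization, and at the chosen probes RPLP2 alone with the 75th percentile. RPLP2 had 17.68, 17.77, 17.88 and 17.62 in liver CS, 17.60, 17.64, 17.50 and 17.71 in liver RPS, 18.43, 18.46, 18.84 and 18.60 in colon CS, and 18.56, 18.84, 18.05 and 18.69 in colon RPS. The tissues did not overlap, and colon RPS replicate 3 was the lowest of the colonic arrays. The difference was 0.88 (SE 0.11, adjusted p = 8.75e-06), and 0.36 with the 75th percentile. On that scaling RPLP2 lost the call within CS pigs alone (0.12, adjusted p = 0.471 in limma). RPLP1 was 18.41 ± 0.23 in the colon and 17.85 ± 0.12 in the liver (SD, n = 8), a difference of 0.57 (SE 0.11, adjusted p = 0.000401), and 0.08, not called, with the 75th percentile. The other 4 probes of RPLP1 were called higher with that scaling, at 0.23, 0.34, 0.44 and 1.49.

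Without colon CS replicate 3 and colon RPS replicate 2, 31 members were higher, 1 was lower and the median was 0.47, while 12757 of the 43603 probes were higher and 10390 lower. With the 75th percentile as well, 7 members were higher, 4 were lower and the median was 0.07, while 12664 probes were higher and 13727 lower. Within CS pigs alone 24 members were higher and 0 were lower (9658 and 7934 of all probes), and within RPS pigs alone 24 and 0 (8836 and 7479 of all probes). With the 75th percentile most of these calls were lost. Then 3 members were higher and 4 lower within CS (9797 and 12255 of all probes), and 4 and 0 within RPS (8434 and 7035). With slide as a random block the counts were 35 and 0 (13300 and 11012 of all probes), but the estimated correlation within slides was negative (-0.0462), which narrows the errors, and each tissue lay on slides of its own.

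Probes of the same gene did not always give the same tissue difference. Over all 202 member probes, 165 were higher in the colon and 2, both of RPS29, were lower (60 and 13 with the 75th percentile). Of the 202, 198 had a signal well above background on each of the 16 arrays. The widest spread was that of RPL5, from 0.24 to 2.77 over 18 probes, followed by RPL36AL, from -0.14 to 0.93 over 2 probes, and RPS4, from 0.60 to 1.51 over 14 probes. For RPL36AL the probe not chosen had a mean of 11.69 and was not called (adjusted p = 0.365), and with the 75th percentile it was called lower, at -0.33, against the call of the chosen probe. For RPS4 the 4 lowest probes gave 0.60, 0.60, 0.68 and 0.70 and the other 10 gave 1.15 to 1.51. These 4, among them the second brightest, gave 0.08 to 0.20 with the 75th percentile and were not called, while the other 10 were called.

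The RPL5 probes with the highest differences are shown because each shares a long stretch with another RPL5 probe and yet reads another difference. Capitals mark the longest stretch that is the same in the probe and in A_72_P731343, and in that probe itself the longest stretch shared with A_72_P732813. All are 60 bases long and have a GC content of 45.0%.
RPL5 probe A_72_P731343: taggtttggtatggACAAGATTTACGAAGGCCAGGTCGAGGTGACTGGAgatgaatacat
RPL5 probe A_72_P735163: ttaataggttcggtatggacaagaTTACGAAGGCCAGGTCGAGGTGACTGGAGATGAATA
RPL5 probe A_72_P732813: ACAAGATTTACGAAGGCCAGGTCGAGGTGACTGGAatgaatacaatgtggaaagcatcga
A_72_P735163 shares 36 bases in a row with A_72_P731343, and 49 if 1 base of the latter is left out. For A_72_P732813 these runs are 35 and 44 bases. The colon minus liver difference was 0.85 (SE 0.21) for A_72_P731343, 2.31 (SE 0.24) for A_72_P735163 and 2.77 (SE 0.23) for A_72_P732813, and 0.38, 1.94 and 2.42 with the 75th percentile. A_72_P732813 read 12.28, 11.76, 12.03 and 11.67 in liver CS, 11.60, 12.12, 10.80 and 11.76 in liver RPS, 14.23, 14.41, 15.29 and 14.69 in colon CS, and 13.65, 15.03, 14.24 and 14.62 in colon RPS. The lowest liver array was RPS replicate 3 and the highest colonic arrays were again CS replicate 3 and RPS replicate 2. What else such a probe binds was not tested.

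A pair of RPS4 probes is shown for contrast, since there a run interrupted by 1 base went with nearly equal differences. Capitals mark the longest stretch that both hold, 27 bases, which becomes 51 bases if 1 base of the first probe is left out.
RPS4 probe A_72_P530047: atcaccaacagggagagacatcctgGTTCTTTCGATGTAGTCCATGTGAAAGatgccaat
RPS4 probe A_72_P577323: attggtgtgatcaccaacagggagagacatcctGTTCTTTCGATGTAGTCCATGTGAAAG
The first gave a colon minus liver difference of 1.37 (SE 0.14) and the second one of 1.32 (SE 0.15), and 0.86 and 0.86 with the 75th percentile. Over the 40 chosen probes, GC content ran from 35.0% to 55.0% (median 44.1%, against 41.7% over all probes), and its correlation across genes with the tissue difference was 0.18, genes not being independent replicates. A stretch of 25 bases or more was shared with another probe of the same name for 20 of the 40, and with a probe of another name for 2, RPL8 and RPS18.

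Beside the ribosomal proteins themselves, other lists of the translation machinery were compared between the tissues. Of the 9 elongation and pyrimidine tract genes, 6 were higher in the colon and 0 were lower (median 0.66), or 1 and 1 with the 75th percentile (median 0.19). GNB2L1, which encodes the small subunit scaffold RACK1, was 0.68 higher (SE 0.10) and NACA, a chaperone of new polypeptides, 0.70 (SE 0.10), whereas with the 75th percentile both gave 0.19 and neither was called. HNRNPA1, an RNA-binding protein, was 0.99 higher (SE 0.20) and 0.90 with the 75th percentile, both called, though not within CS pigs alone (0.76 and 0.66).

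Of the 10 initiation factors, 6 were higher in the colon and 2 were lower (median 0.47), or 5 and 2 with the 75th percentile (median 0.18). EIF4A3, a helicase of the exon junction complex, was 1.39 higher (SE 0.12, and 0.96 with the 75th percentile). EIF6, which keeps the large subunit from joining too early, was 0.91 higher (SE 0.09, and 0.53). With the 75th percentile EIF6 lost the call within CS pigs alone (0.34). EIF4A2, a helicase that unwinds the start of the messenger RNA, was 0.50 higher (SE 0.06), and at -0.003 with the 75th percentile it was not called.

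Genes that build ribosomes in the nucleolus form another list. Of 18 biogenesis genes, 9 were higher in the colon and 1 was lower (median 0.49), or 8 and 2 with the 75th percentile (median 0.31). DKC1, the pseudouridine synthase of ribosomal RNA, was 1.30 higher (SE 0.18, and 1.27 with the 75th percentile), NOP56, a core protein of the methylation particles, 1.30 (SE 0.19, and 0.98), and NOLC1, their chaperone, 1.13 (SE 0.18, and 1.12). Of 2 genes of RNA polymerase I, which transcribes ribosomal RNA, ZNRD1 was 0.69 higher (SE 0.13, and 0.57 with the 75th percentile) and POLR1A, at -0.28 (SE 0.26), was not called. Without colon RPS replicate 2 POLR1A was called lower (-0.54), as it was without both arrays that stand apart (-0.60, and -0.47 with the 75th percentile as well).

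The mitochondrial ribosome is built from other genes. Of its 10 measured genes, 1 was higher in the colon, 3 were lower and the median was 0.00, or 0, 5 and -0.24 with the 75th percentile. MRPS18B was lower by 1.21 (log2 difference -1.21, SE 0.12) and MRPS11 gave -0.69 (SE 0.12), with -1.18 and -0.75 under the 75th percentile, while MRPS31 was 0.24 higher (SE 0.09) and, at 0.08, not called under that scaling. MRPS31 also lost the call with the mean of all probes (0.16), within CS (0.30) or RPS pigs alone (0.19), and in several fits with 1 array left out (0.19 to 0.24). Among 11 regulators of these messenger RNAs, 4 were higher and 2 were lower (median 0.09), or 4 and 3 with the 75th percentile (median 0.12). MYC, which drives transcription of ribosome genes, was 1.60 higher (SE 0.19, and 1.54 with the 75th percentile). DEPTOR, an inhibitor of mTOR, gave -2.21 (SE 0.23, and -2.08) and EEF2K, the kinase that slows elongation, -1.15 (SE 0.15, and -1.21). Of 7 proteasome core genes, an unrelated large complex, 2 were higher and 1 was lower (median 0.20), or 2 and 2 with the 75th percentile, where the median turned to -0.28.

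Markers of the tissues followed the labels. All 24 hepatocyte genes were lower in the colon (median -12.45), with a mean level of 16.40 to 16.53 on the liver arrays and 4.27 to 4.78 on the colonic arrays, APOA2 being the most abundant. Of 18 epithelium genes, 15 were higher in the colon (median 5.02). Of these genes, FABP1, KRT8, KRT18 and CDH1 are also expressed by liver cells. Lists of dividing cells and lymphocytes were read in the same way. Of 11 division genes 10 were higher in the colon (median 2.98), and of 17 lymphocyte genes 15 were (median 2.93), with mean levels of 6.31 to 8.27 and 6.40 to 7.26 on the liver arrays. Of 13 myeloid genes, with C1QB the most abundant, 2 were higher and 8 were lower (median -0.53). Stroma, muscle and endothelium genes, with ACTA2 the most abundant, had 7 of 13 higher and 5 lower (median 0.32), and of the 2 erythroid genes CA1, also an epithelium gene, was higher and SLC4A1 was lower. SLC4A1 (-1.63) was not called within RPS pigs alone (-1.10, and -1.20 with the 75th percentile). The part of these cells in the tissue difference of the members was not tested.

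In the colon, the RPS diet was compared with CS to see whether long-term resistant starch alters the genes of the ribosome in the mucosa. No member passed. In limma 0 of the 40 had an unadjusted p under 0.05, and the methods' t-test also gave 0, while 5.42% of all probes were under it, with 1.62% higher and 1.32% lower by a fold above 1.5 as well. The differences ran from -0.22 to 0.16 with a median of -0.05, 27 below and 13 above 0, and the median over all probes was 0.01. The direction turned with the 75th percentile, with 39 of 40 above 0 and a median of 0.19 against 0.07 over all probes. There 1 member, RPLP1, had an unadjusted p under 0.05 in limma (0.39, adjusted p = 0.418), and 0 members passed the fold as well. By p and fold, 1358 of all probes were higher and 610 lower on that scaling, against 708 and 575 with quantile normalization.

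RPL3 had the smallest p of the members in the colon. Its values were 13.07, 13.31, 13.63 and 13.35 with CS and 12.83, 13.54, 12.90 and 13.19 with RPS. The groups overlapped, and within each the array that stood apart was the highest. The difference was -0.22 (95% interval -0.68 to 0.23, exact permutation p = 0.314). RPL14, a large subunit protein, had 16.14, 16.02, 16.66 and 16.34 with CS and 16.36, 16.84, 16.09 and 16.54 with RPS, again overlapping. Its difference of 0.16 (95% interval -0.32 to 0.64, exact permutation p = 0.486) was the highest of the 40.

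The other members with the smallest p in the colon were RPS15 (-0.15), RPL7 (-0.16), RPL10 (-0.10) and RPS10 (0.15). The first 3 of these turned above 0 with the 75th percentile, at 0.11, 0.03 and 0.14. Large subunit genes had a median of -0.03, small subunit genes of -0.08 and P-stalk genes of -0.004, and with the 75th percentile these were 0.19, 0.16 and 0.37. Leaving out CS replicate 3 moved the median of the 40 to 0.06, leaving out RPS replicate 3 to 0.05, leaving out RPS replicate 2 to -0.16, and leaving out both arrays that stand apart to -0.06, with 0 members called in each fit.

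Other lists in the colon held few called genes. PABPC1, which binds the tail of messenger RNAs and itself starts with a pyrimidine tract, was the only one of the 9 elongation genes called with all 8 arrays in the fit. It had 15.71, 15.32, 16.38 and 15.92 with CS and 14.73, 15.52, 14.49 and 15.54 with RPS, with overlap. The difference was -0.76 (SE 0.32, exact permutation p = 0.114, adjusted p = 0.919). The call was lost with the mean of all probes (-0.23), the 75th percentile (-0.60), the replicate block, in the methods' t-test, without both arrays that stand apart (-0.71), and when CS replicate 1, 3 or 4 or RPS replicate 1 or 3 was left out (-0.81 to -0.56). The proteasome gene PSMB3 was called at 0.60 (SE 0.23, exact permutation p = 0.0286, the smallest that 4 arrays against 4 allow). It lost the call with the 75th percentile (0.55), normexp (0.40), the replicate block, all 16 arrays in 1 fit (0.61), both arrays that stand apart left out (0.47), and without CS replicate 2 or 4 or RPS replicate 2 or 4 (0.42 to 0.62). No gene of biogenesis, initiation, RNA polymerase I, the mitochondrial ribosome or the regulators passed p and fold, and their medians were 0.05, 0.12, -0.07, 0.13 and 0.09 (0.10, 0.23, -0.07, 0.19 and 0.10 with the 75th percentile). The median of the elongation genes was -0.03 and turned to 0.08 with the 75th percentile. Some calls were gained when 1 array was left out. HNRNPA1, an elongation list gene at 0.44, was called without CS replicate 3 (0.73), POLR1A, at -0.16, without RPS replicate 2 (-0.65), and RPS6KA3, a regulator at 0.51, without CS replicate 1 or RPS replicate 2 (0.59 in each).

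Some immune and stromal markers were called lower by p and fold in the same mucosa, where 1.32% of all probes were. Of 17 lymphocyte genes 16 were below 0 (median -0.48) and 1, CD4, was called (-0.99, SE 0.30), though not with normexp (-0.50) or the mean of all probes (-0.68). Of 13 myeloid genes 3 were called lower, the complement genes C1QA (-0.88), C1QB (-1.27) and C1QC (-1.30), and of 13 stromal genes 2 were, PDGFRB (-0.66) and COL1A2 (-0.72). C1QA lost the call without CS replicate 2 (-0.78). PDGFRB and COL1A2 lost it with the replicate block, with the mean of all probes (-0.57 and -0.49) and without RPS replicate 4 (-0.57 and -0.53), and PDGFRB also with normexp (-0.13). Epithelium genes had a median of 0.22 and division genes one of -0.11, with 0 called. With 1 array left out calls were gained by CA2 (1.23), KRT18 (0.86), HPX (0.60 and 0.66), AMBP (1.62) and ACTA2 (-0.60). The lowest adjusted p in these lists was 0.573. Their part in the values of the members was not tested.

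In the liver, the same diets were compared, and no member passed p and fold at its chosen probe. Of the 40, 38 were below 0, and the median was -0.08 against -0.004 over all probes and -0.04 over the brightest 5%. The members share arrays and are not replicates of the diet. Their median difference was smaller than the SD of the member median between liver arrays of a group (0.093). In limma 1 member had an unadjusted p under 0.05 and 0 passed the fold of 1.5, while 7.59% of all probes were under that p and 1.8% were higher and 1.76% lower by p and fold. Over all 202 member probes 3 were under that p, the chosen one of RPS13 and others of RPSA (-0.20) and RPLP1 (0.587). The RPLP1 probe, of a mean of 4.98, was higher with RPS and also passed the fold. The methods' t-test gave 2 members under 0.05, RPS13 and RPSA, and 0 past the fold. With the 75th percentile 36 of 40 were below 0 (median -0.09, against 0.04 over all probes), with 0 members under 0.05. With normexp 4 members were under it, RPL18, RPS12, RPS13 and RPS23, with adjusted p of 0.543 to 0.656 in limma. By p and fold 0 members passed with normexp, while 116 of all probes were higher and 104 lower. With 1 array left out the median ran from -0.13, without RPS replicate 4, to -0.07, with 0 members called.

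RPS13, a small subunit protein, was the member with the smallest p in the liver. It had 16.61, 16.66, 16.63 and 16.47 with CS and 16.35, 16.51, 16.20 and 16.40 with RPS. Only RPS replicate 2 reached into the CS range, and RPS replicate 3 was the lowest. The mean was 16.59 ± 0.08 with CS and 16.36 ± 0.13 with RPS (SD, n = 4), a difference of -0.23 (SE 0.09, exact permutation p = 0.0571, adjusted p = 0.621). RPSA had 15.70, 15.70, 15.64 and 15.56 with CS and 15.52, 15.43, 15.59 and 15.44 with RPS. There too a single RPS array, replicate 3, lay above the lowest CS array, and the difference was -0.15 (SE 0.08, exact permutation p = 0.0571, adjusted p = 0.709).

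RPS12 (-0.20, SE 0.10), RPS23 (-0.17, SE 0.10), RPS3 (-0.15, SE 0.09) and RPL3 (-0.26, SE 0.16) completed the 6 smallest p, with adjusted p of 0.699 to 0.765. All 17 small subunit genes and 19 of 21 large subunit genes were below 0, and the medians were -0.09 and -0.08 (16 of 17 and 18 of 21 below 0 with the 75th percentile). RPL7L1, chosen after its values were seen, was the highest member at 0.17, with 13.46, 13.72, 13.52 and 13.32 under CS and 13.74, 13.62, 13.79 and 13.55 under RPS. Its liver RPS arrays 1 and 3 lay above all CS arrays, and the exact permutation p was 0.143. Liver RPS replicate 3 was the lowest liver array for the family as a whole, with 5 members above the group mean against 22, 34 and 31 on replicates 1, 2 and 4.

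Among the other lists in the liver, the mitochondrial ribosome had 9 of 10 genes above 0 (median 0.15) and MRPL40 called (0.60, SE 0.13, exact permutation p = 0.0286, adjusted p = 0.342). MRPL40 lost the call with normexp (0.14), with the authors' values (0.58) and without CS replicate 2, RPS replicate 1 or RPS replicate 2 (0.52 to 0.56). No elongation, initiation, biogenesis, RNA polymerase I or regulator gene passed p and fold, and the medians of these lists were -0.06, -0.03, -0.03, -0.03 and -0.07. The medians of initiation and biogenesis genes turned to 0.02 and 0.01 with the 75th percentile. Division genes had a median of 0.63 with 10 of 11 above 0, and lymphocyte genes one of 0.25 with 14 of 17 above 0, and 0 genes of either list had an unadjusted p under 0.05 in limma. RPS replicate 4 was the highest liver array in the division genes, with a mean level of 8.27 against 6.53 to 7.55 on the other RPS arrays. Calls were gained by BIRC5, with the replicate block (0.65) and without CS replicate 1 (0.82), by PLK1 without CS replicate 1 (1.26), by AURKA without RPS replicate 3 (0.85) and by CD8B without RPS replicate 2 (1.01). All 13 myeloid genes were below 0 (median -0.19; 11 of 13 with the 75th percentile), with 0 called, though S100A12 was called without CS replicate 4 (-1.02). Hepatocyte genes had a median of -0.06 with 0 called, stromal genes one of -0.16 with 0, and proteasome genes one of 0.08 with 0. Of the epithelium markers, some of which hepatocytes make, 1 was called higher and 2 lower, FABP1 at 0.64, CDH1 at -0.80 and CA1 at -0.80, and the call was lost under 4, 1 and 9 of the alternatives run. The medians of these lists moved beside the members, and their part was not tested.

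The diet effect of the colon was set against that of the liver by the interaction of diet and tissue. No member passed. In limma 0 of 40 had an unadjusted p under 0.05, against 4.72% of all probes, 2.04% and 1.72% being higher and lower by p and fold. The median was 0.06 with 32 above 0, against 0.01 over all probes, and it turned to -0.06 without colon RPS replicate 2 and to -0.004 without colon CS replicate 1. With the 75th percentile the sign held, at a median of 0.28 with 39 above 0 and 0.06 over all probes, and RPL32 (0.36), RPLP1 (0.41) and RPLP2 (0.48) had an unadjusted p under 0.05, each with an adjusted p of 0.844. RPL36AL (0.23, 95% interval -0.27 to 0.74), RPL14 (0.20, 95% interval -0.32 to 0.72) and RPS10 (0.18, 95% interval -0.29 to 0.65) had the smallest p with quantile normalization. Among the P-stalk genes RPLP2 gave 0.08 (SE 0.22) and RPLP1 0.05 (SE 0.21), and the small and large subunits had medians of 0.04 and 0.07.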

How the data were processed

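Per the file headers, the deposited files hold spot intensity from Agilent Feature Extraction 10.7 (1 colour, Cy3), and the authors also deposited normalized log2 values. From the processed intensity, controls were removed, outlier spots were set to missing, and log2 values were brought to a common distribution by quantiles, over 8 arrays for a diet comparison and over 16 for tissue and interaction. Spots of a probe were averaged, and limma 3.58.1 in R 4.3.3 (package data.table, version 1.17.8) was fitted to all 43603 probes with Benjamini-Hochberg adjustment. Diet and interaction calls needed an unadjusted p under 0.05 and a fold above 1.5, and tissue calls an adjusted p under 0.05. Exact permutation tests were two-sided. Probe sequences were compared and figures drawn in python 3.11.15 with matplotlib 3.10.9. The code was tested on simulated data.

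Genes were named by role, by smallest p (6 members per diet comparison, 3 for the interaction, up to 3 genes of each other list), by highest and lowest difference (5 each among members called between the tissues), and by widest range among probes (3 members). Members and lists were chosen with earlier results of these data known. Alternatives were scaling to the 75th percentile, normexp with an offset of 50, the authors' values, outlier spots kept, a filter on signal, the mean of all probes of a gene, an intensity trend, 1 array left out, normalization or a fit over all 16 arrays, the methods' t-test, a replicate block, a slide block, and each diet alone. Leaving out both colonic arrays that stand apart, with either scaling, and each diet alone with the 75th percentile were chosen after seeing the data. Each of the 4 slides holds 1 group, so no diet comparison could be fitted within a slide.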

Additional observations from a re-analysis of the deposited data

Results flagged for a closer look

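In each group of 4 arrays, the array farthest from the others was marked where its gap to the nearest other array took up nearly the whole range of the group (Dixon's 95% critical value). Of 544 groups of 4 arrays examined, 28 were marked, and chance marks about 1 in 20 groups. Of the 40 members 24 were examined, and 1 of their 96 groups was marked: RPL5 was at 16.34 on liver RPS replicate 3, below the other arrays of its group. The median of all 40 members was examined too and was marked in no group, and neither was the median of the epithelium genes.

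Other genes of translation were marked as follows, in log2 signal. On colon CS replicate 3, HNRNPA1 was at 11.71 and EIF4A3 at 14.62. On colon CS replicate 2, LSG1 was at 10.87. On liver RPS replicate 3, PABPC1 was at 15.51. On liver RPS replicate 4, EIF4G1 was at 9.02 and DDX18 at 8.96. On liver RPS replicate 2, DEPTOR was at 5.32. On liver CS replicates 2 and 4, EIF6 was at 13.08 and MYC at 9.97. The median of a list, as the distance from each gene's mean over the 16 arrays, was marked on colon CS replicate 3 for initiation factors (0.25) and regulators (0.17), above the other arrays of the group, and for the erythroid genes (1.97), below the others (2.60 to 2.71). On liver RPS replicate 4 it was marked for proteasome genes (-0.10), below the others.

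Marker genes were marked too. Colon CS replicate 3 had CD2 at 9.30, CA1 at 15.26 and LGALS4 at 16.66, and colon CS replicate 4 had CD8B at 5.35. Colon RPS replicate 2 had FABP1 at 16.75 and TEK at 7.07, replicate 3 had SLC4A1 at 2.03 and replicate 4 had C1QB at 11.69. Liver RPS replicate 3 had PDGFRB at 4.95, MRC1 at 11.27 and EPCAM at 6.09, liver RPS replicate 1 had GUCA2B at 6.36 and replicate 4 had KRT18 at 12.76. Liver CS replicate 1 had PLK1 at 3.45. The marks of SLC4A1 and PLK1 rest on dim signals, since the other arrays of their groups read 0.78 to 0.80 and 2.00 to 2.22.

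The diet effect differed between colon and liver, by the interaction in limma at an unadjusted p under 0.05 and a fold above 1.5, for marker genes but for no member, while 2.04% of all probes were called higher and 1.72% lower. The colonic minus the liver effect was -1.07 for CD4, -0.76 for C1QA, -1.15 for C1QB, -1.17 for C1QC, -0.89 for ACTA2, -0.68 for COL6A1, 0.60 for HPX and 1.27 for CA1. C1QA lost the call with the 75th percentile (-0.66), with normexp (-0.68) and in 12 fits with 1 array left out (-0.78 to -0.46, the latter without colon RPS replicate 4). ACTA2 lost it under 14 of the alternatives run, HPX under 10 and CA1 under 9. CD4 lost it with normexp (-0.45) and with the mean of all probes (-0.52), and COL6A1 with normexp (-0.32). Among translation genes, PABPC1, HNRNPA1, POLR1A and EEF2K gained it in fits with 1 array left out. So did the marker genes CA2, CD2, PDGFRB, PLK1 and SLC4A1, and APOC3 gained it with the mean of all probes (-0.70). ITIH2, at 1.05, gained it with normexp (0.69), the mean of all probes (0.79), the filter on signal, the replicate block and other alternatives.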

How the results depend on the processing

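Between the tissues, 32 to 36 members were called with 1 array left out (median 0.53 to 0.63), and 0 of them lower, while 22003 to 22810 of the 43603 probes were called. With the 75th percentile 17 members were called, 4 of them lower (median 0.15). Within CS on that scaling 7 were called, 4 lower (median 0.021), while 9797 of all probes were higher and 12255 lower. Within RPS on it 4 were called (median 0.30), while 8434 probes were higher and 7035 lower. With both colonic arrays that stand apart left out, 1 member was lower, and with the 75th percentile as well 11 were called, 4 lower (median 0.066). With the mean of all probes of a gene 1 member was lower, while 9477 of 35458 names were higher and 8063 lower. The median of the interaction was 0.28 with the 75th percentile. The cause was not tested.

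Differences above 0 turned as follows. With the 75th percentile RPL10 was at -0.15, RPL19 at -0.051, RPL23 at -0.32, RPL30 at -0.19, RPL7L1 at -0.072, RPS3 at -0.061, RPSA at -0.10, RPS28 at -0.45, RPS21 at -0.35, RPS23 at -0.13, RPS26 at -0.051 and EIF4A2, an initiation factor, at -0.0034. On the other settings with the 75th percentile only genes named by the rule were followed, and RPS23, called in none of them, was at -0.24 within CS, -0.011 within RPS and -0.26 without both arrays. RPL5 was at -0.080 within CS and -0.050 without both arrays. Within CS on that scaling RPL10 was at -0.23, RPL11 at -0.17, RPL14 at -0.049, RPL19 at -0.15, RPL23 at -0.47, RPL30 at -0.30, RPL7L1 at -0.066, RPLP1 at -0.13, RPS13 at -0.094, RPS3 at -0.28, RPSA at -0.21 and EIF4A2 at -0.066. Within RPS on that scaling RPL10 was at -0.058, RPL23 at -0.18, RPL30 at -0.069 and RPL7L1 at -0.078. Without both arrays on that scaling RPL10 was at -0.19, RPL11 at -0.040, RPL19 at -0.12, RPL23 at -0.38, RPL30 at -0.26, RPL7L1 at -0.18, RPS13 at -0.019, RPS3 at -0.15 and RPSA at -0.24. The cause was not tested.

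With replicate number as a block, 0 members were called for either diet, 34 between the tissues (random block, consensus correlation 0.0792), all higher, while 12917 of all probes were higher and 10796 lower, and 0 for the interaction. The labels do not say whether replicate numbers pair arrays. The correlation of liver and colon deviations over 23415 probes was 0.18, 0.34, 0.16 and 0.24 in CS, all above 0, and -0.077, -0.066, 0.012 and 0.073 in RPS. Between CS and RPS arrays of the same number it was 0.55, -0.39, -0.51 and 0.099 in the colon and 0.075, 0.11, -0.16 and -0.048 in the liver. The fits within each diet used no pairing. Over all probes, the colonic diet calls were 1283, against 1968 with the 75th percentile, 172 with normexp, 780 after the filter on signal, 2635 without colon RPS replicate 2 and 2385 without both arrays. The liver calls were 1554, against 220 with normexp and 965 after the filter. The interaction calls were 1638, against 296 with normexp, 2802 without colon RPS replicate 2 and 2602 without both arrays. The cause was not tested. All 40 chosen probes, and 198 of the 202 member probes, were well above background on each array.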
